A study of Mus musculus with 3 samples.

Results

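The Myc family and the Max network are a set of transcription factors, most of which share 1 dimer partner. Of its genes, 10 were followed here among the 31053 genes listed in the raw count files. They are Mycn, Myc and Mycl (the Myc proteins), Max (the partner) and Mxd1, Mxd3, Mxd4, Mxi1 and Mnt (repressors that compete for Max). The last is Mlx, a relative of Max whose partners do not include Myc. The genes were chosen by name and not by their values, though with earlier results of these data known, and all 10 were found in the files.

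Whole tumors of 3 TH-MYCN mice, all heterozygous for the transgene and forming a single group, had been dissociated and read by droplet single-cell RNA-seq, 1 tumor per mouse. The mice were 62 days (tumor 1), 79 days (tumor 2) and 63 days (tumor 3) old. In this model a human MYCN transgene is driven by the tyrosine hydroxylase promoter, which is active in the sympathetic lineage from which neuroblastoma arises. The authors kept 1914, 1221 and 2515 cells, 5650 in all, with medians of 4282.5, 1594 and 1816 unique molecular identifiers (UMIs, 1 per captured RNA molecule). With no second group of mice, members were compared between cell classes and between ranges of tumor-like cells. Each comparison rests on at most 3 tumors, and the spread behind a p-value was pooled over all classes or ranges of the fit.

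Myc proteins form dimers with Max, bind the short DNA motif CACGTG, known as the E-box, and raise transcription of genes for growth and ribosome production. The Mxd proteins, Mxi1 and Mnt bind the same motif with Max and recruit deacetylase complexes that repress, and several Mxd genes are known to rise as cells leave the cell cycle and mature. Amplification of the human gene MYCN marks high-risk neuroblastoma, and MYCN is the driver oncogene of the mouse model.

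The files held a row for mouse Mycn and none under the human symbol MYCN. A count of Mycn can therefore be RNA of the mouse gene or, where the read matches both species, RNA of the transgene, and the sources cannot be told apart from these tables. Mycn lies on chromosome 12 of the build GRCm38 (12936093 to 12941914, minus strand) in the GENCODE M21 annotation.

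Cells were grouped by clustering on genes that did not include the members. The cluster names rest on marker genes, so classes are called "like" a type. They held 3254 tumor-like cells in 6 clusters, 884 macrophage-like, 312 neutrophil-like, 267 T cell-like, 245 B cell-like, 117 plasmacytoid dendritic-like, 99 endothelial-like, 87 CAF-like (cancer-associated fibroblast), 47 NK cell-like, 29 erythroid-like and 26 mesothelial-like cells, with 283 cells left unnamed. Tumor-like cells numbered 348, 861 and 2045 in tumors 1, 2 and 3. Levels are given as CPM, the UMIs of a gene scaled to the same total number of UMIs (1000000) in each class of each tumor, for sums of at least 10 cells. Tumors 1 and 2 shared 3 cell barcodes, tumors 2 and 3 shared 1, and tumors 1 and 3 shared 0.

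In each of the 3 tumors Mycn was higher in tumor-like cells than in any other named class of at least 10 cells. Its level there was 909 CPM in tumor 1, 399 CPM in tumor 2 and 656 CPM in tumor 3, a mean of 655 ± 255 CPM (SD, n = 3). Tumor 1 was thus the highest and tumor 2 the lowest, with 559, 663 and 2545 Mycn UMIs behind these values. Tumor-like cells stood 2.56 ± 0.78 (SE) above the mean of the 10 other classes on the log2 scale, with an adjusted p of 0.0308 (edgeR quasi-likelihood test with Benjamini-Hochberg adjustment over 10948 genes). In that comparison 13.1% of all genes were called higher and 1.88% lower in tumor-like cells, with a median log2 difference of 0.25 over all genes. DESeq2 with its size factors called 0.941% higher and 17.3% lower, with a median of -0.53 over all genes, so that directions in tumor-like cells are relative to the scaling. With DESeq2 Mycn stood at 2.05 and did not pass (adjusted p = 0.108).

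The size of that difference depended on the tumor. In tumor 1 the 9 other classes held between 3.28 and 22.5 CPM of Mycn, at most 2.48% of the tumor-like level. In tumor 2 the 6 other classes held 78.7 to 341 CPM, between 19.7% and 85.5% of the tumor-like level. In tumor 3 the 8 other classes held 184 to 520 CPM, between 28.1% and 79.2%. Without tumor 1 the log2 difference was 0.96 (adjusted p = 0.0335), without tumor 3 it was 3.98 (adjusted p = 0.00982), and without tumor 2 it was 3.18 and no longer passed (adjusted p = 0.0579). Against macrophage-like cells alone it was 2.02 and did not pass (adjusted p = 0.243).

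RNA of other tumor genes moved with Mycn across these classes. The summed CPM of 7 genes of the sympathetic lineage and of neurons (Dbh, Th, Chgb, Stmn2, Hand2, Gata3 and Tubb3) was 0.533% to 7.51% of the tumor-like sum in the other classes of tumor 1, 21.1% to 49.1% in tumor 2 and 32.3% to 89.7% in tumor 3. In tumor 2, T cell-like cells held 49.1% of the summed tumor genes and 85.5% of the Mycn level, and macrophage-like cells held 23.0% and 41.9%. In tumor 3, T cell-like cells held 89.7% of the summed genes and 64.2% of the Mycn level. The Mycn share exceeded the share of the 7 genes in 2 of 9 classes in tumor 1, 4 of 6 in tumor 2 and 4 of 8 in tumor 3. The part of free tumor RNA in the Mycn counts of other classes was not tested. All 7 genes but Tubb3 were also markers used to name tumor-like clusters, and none of the 7 was held out of the clustering. Their shares are therefore not independent of the classes.

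**Figure D1:**
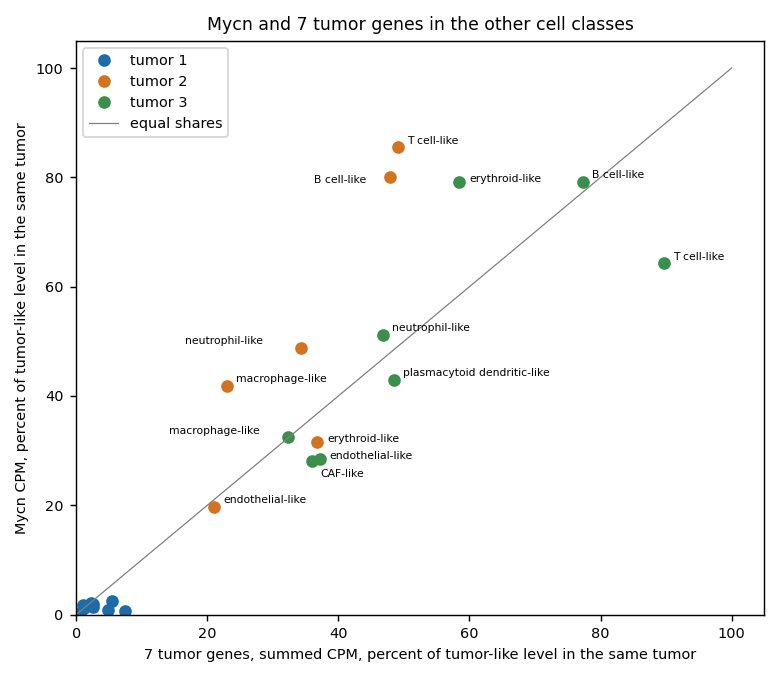
Each point is a cell class other than tumor-like in 1 tumor (at least 10 cells), with the summed CPM of 7 tumor genes on the x axis and Mycn CPM on the y axis, both as percent of the level in tumor-like cells of the same tumor; the line marks equal shares. Tumor 1 classes lie at or below 7.51% on both axes, while those of tumors 2 and 3 spread from 19.7% to 89.7%.

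Counted per cell, Mycn was found in only part of the tumor-like cells. After each cell was thinned to 1000 UMIs, 97 of 160 tumor-like cells of tumor 1 (60.6%), 294 of 861 of tumor 2 (34.1%) and 955 of 2045 of tumor 3 (46.7%) held at least 1 Mycn UMI. In tumor 1 only 160 of the 348 tumor-like cells were deep enough to be thinned to that depth. The mean was 1.025, 0.417 and 0.647 Mycn UMIs per thinned cell. The variance was 1.23, 1.06 and 1.06 times the mean, against 1 for counts that differ between cells by sampling alone. The highest thinned count was 6, 7 and 6 UMIs in a cell. At 500 UMIs per cell the share with a Mycn UMI was 25.3% in tumor 1 (95% exact binomial interval 20.8 to 30.2), 16.6% in tumor 2 (14.2 to 19.3) and 28.4% in tumor 3 (26.5 to 30.4), and without thinning it was 48.3%, 49.6% and 67.0%. In macrophage-like cells, given for comparison, the share at 500 UMIs was 0.495%, 14.3% and 13.3% (7.92%, 50% and 51.7% without thinning). Median depths there were 8786.5, 2826.5 and 3034 UMIs, beside 942, 1532 and 1825 UMIs in tumor-like cells. These intervals cover counting error only.

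The other Myc genes were rare in tumor-like cells. Myc, the gene of the founding member of the family (chromosome 15, 61985391 to 61990374, plus strand), gave 3, 2 and 4 UMIs in all tumor-like cells of tumors 1, 2 and 3, which is 4.88, 1.20 and 1.03 CPM. Its highest sum was in the B cell-like cells of tumor 1, with 54 UMIs or 55.7 CPM (95% Poisson interval 41.8 to 72.6) and 16.2% of the 204 cells before thinning. No Myc UMI was found in the B cell-like cells of tumors 2 and 3, whose sums of 25033 and 40405 UMIs allow up to 120 and 74.2 CPM. Each of these limits lies above the 55.7 CPM of tumor 1, so neither sum taken alone shows a lower level. B cell-like cells were called higher against the mean of the other classes at a log2 difference of 3.48 ± 0.89 (adjusted p = 0.0351, 2.64% of all genes called higher). Without the erythroid-like and mesothelial-like sums the difference was 3.21 ± 0.76 (adjusted p = 0.0191). The call rests on tumor 1 and was lost without tumor 2 (adjusted p = 0.102), without tumor 3 (0.0585) and against macrophage-like cells alone (0.172), while DESeq2 gave no adjusted p. Myc was at 0 in every neutrophil-like and erythroid-like sum, so that the size of this difference depends on the prior count of the fit and is no measured fold.

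Mycl, the third Myc gene (chromosome 4, 122995652 to 123002485, plus strand), was highest in plasmacytoid dendritic-like cells. Its level was 56.9 CPM in tumor 1 (52 UMIs) and 35.2 CPM in tumor 3 (2 UMIs, 95% Poisson interval 4.27 to 127), while tumor 2 had only 4 such cells and no UMI. In tumor-like cells it was 16.3, 7.83 and 6.70 CPM, which did not overlap the plasmacytoid dendritic-like values. Mycl was called higher in plasmacytoid dendritic-like cells, where 5.24% of all genes were, at a log2 difference of 4.81 ± 0.68 (adjusted p = 5.91e-05). Its sums were 0 in the B cell-like, NK cell-like and erythroid-like classes. The value against macrophage-like cells alone is therefore the firmer measure of size, 3.41 ± 0.75 (adjusted p = 0.0135). The call against the mean of the other classes rests largely on tumor 1. It was lost without that tumor, where Mycl did not pass the filter on low counts. The call was also lost at a clustering resolution of 0.5 and with the authors' corrected counts. Without the erythroid-like and mesothelial-like sums the difference was 4.57 ± 0.65 (adjusted p = 6.01e-05), and tumor-like cells were then called higher too, at 1.79 ± 0.68 (adjusted p = 0.0466, 21.2% of all genes called higher). Before thinning, 37.8% of the 90 plasmacytoid dendritic-like cells of tumor 1 held a Mycl UMI at a median of 10952 UMIs, and at 500 UMIs per cell 4.44% did (95% exact binomial interval 1.22 to 11.0), beside 0.862% of the tumor-like cells of that tumor.

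Max, the partner shared by the Myc and Mxd proteins (chromosome 12, 76937269 to 76962201, minus strand), was found in all classes but the erythroid-like one, whose sums were at 0. Neutrophil-like cells held 170, 135 and 44.8 CPM in tumors 1, 2 and 3, a mean of 117 ± 64.5 CPM, and tumor-like cells 65.1, 32.5 and 43.8 CPM, a mean of 47.1 ± 16.5 CPM. The neutrophil-like value of tumor 3 rests on 2 UMIs and lies within the range of the tumor-like cells. Macrophage-like cells (48.7 ± 7.75 CPM) and B cell-like cells (56.3 ± 17.2 CPM) overlapped the range of tumor-like cells. Max was called higher in neutrophil-like cells, where 13.5% of all genes were, at a log2 difference of 2.85 ± 0.58 (adjusted p = 0.000821). Without the erythroid-like and mesothelial-like sums it was 1.90 ± 0.42 (adjusted p = 0.00201), and against macrophage-like cells alone 1.80 (adjusted p = 0.140).

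No member was called higher in T cell-like (2.03% of all genes called), macrophage-like (9.92%), mesothelial-like (9.51%) or erythroid-like cells (0.164%). The dependence on small classes touches several members. Max, Mnt, Mxd1, Mxd4, Myc and Mycl were at 0 in both erythroid-like sums, which held 23760 and 25034 UMIs. Mxd3 was at 0 in the lone mesothelial-like sum. A class at 0 enlarges a fold against the mean of all classes and leaves a lower value without a usable test. The called differences of these members are therefore given also without the erythroid-like and mesothelial-like sums ("without the small classes"), a setting chosen after the data were seen. In that setting 21.2% of 11068 genes were called higher and 12.4% lower in tumor-like cells.

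Mxd1 in neutrophil-like cells was the largest of the 12 called differences. It encodes Mad1, a repressor known from maturing myeloid cells (chromosome 6, 86647042 to 86669161, minus strand). Neutrophil-like cells held 2859 CPM in tumor 1, 1515 CPM in tumor 2 and 1277 CPM in tumor 3, a mean of 1884 ± 853 CPM from 2280 UMIs. The next level was 304 CPM in the NK cell-like cells of tumor 1, a lone sum, and macrophage-like cells held 39.6, 22.8 and 29.9 CPM. The neutrophil-like range did not overlap that of any other class. The log2 difference was 7.36 ± 0.68 (adjusted p = 2.74e-08), 6.47 ± 0.61 without the small classes (adjusted p = 3.18e-08) and 6.30 ± 1.12 against macrophage-like cells alone (adjusted p = 0.00123). At 500 UMIs per cell, 72.0% of neutrophil-like cells of tumor 1 (95% exact binomial interval 65.8 to 77.7), 53.7% of tumor 2 (39.6 to 67.4) and 27.3% of tumor 3 (10.7 to 50.2) held an Mxd1 UMI, and 96.2%, 90.7% and 77.3% did before thinning. The same share was 1.44%, 0.116% and 0.196% in tumor-like cells. The median depth of the neutrophil-like cells was 2608, 2231.5 and 2072 UMIs.

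Outside neutrophil-like and NK cell-like cells no class mean of Mxd1 exceeded 32.8 CPM. Tumor-like cells held 24.4, 4.82 and 4.38 CPM (15, 8 and 17 UMIs), with tumor 1 the highest, and without the small classes they were called lower at a log2 difference of -2.67 ± 0.82 (adjusted p = 0.0165). Of the 15 UMIs of tumor 1, 7 came from 1 cluster of 39 cells that also held neutrophil markers, and without it the level there was 13.7 CPM and the log2 difference without the small classes -3.15 ± 0.80 (adjusted p = 0.00553). In NK cell-like cells the log2 difference of 3.88 passed (adjusted p = 0.0451, 1.92% of all genes called higher) but rests on the 32 cells of 1 tumor, and it was lost without the small classes (adjusted p = 0.0808, or 0.0442 when the 39 cells were left out too), with at least 20 cells per sum (0.162), with DESeq2 (0.738), against macrophage-like cells alone (0.260) and without tumor 2 (0.252) or tumor 3 (0.138).

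Other repressor genes were called in neutrophil-like cells too. Mnt, a widely expressed repressor (chromosome 11, 74830920 to 74845725, plus strand), held 53.8, 52.5 and 44.8 CPM there and 37.4, 30.1 and 26.3 CPM in tumor-like cells, ranges that did not overlap, although tumors 2 and 3 gave only 7 and 2 neutrophil-like UMIs. Its log2 difference was 2.09 ± 0.56 (adjusted p = 0.0105), or 1.20 ± 0.40 without the small classes (adjusted p = 0.0483, 12.1% of all genes called higher). The call was lost without tumor 2 (adjusted p = 0.0759), without tumor 3 (0.0535) and against macrophage-like cells alone (0.289). It was also lost without tumor 1, at a clustering resolution of 0.5 and with the authors' corrected counts. Mxi1 (chromosome 19, 53310518 to 53375810, plus strand) held 94.8, 75 and 89.6 CPM in neutrophil-like cells, at a log2 difference of 1.90 ± 0.41 (adjusted p = 0.00148). That call was lost without tumor 1 (adjusted p = 0.153) and against macrophage-like cells alone (0.152). In all, 4 of the 10 members (beside 13.5% of all genes) were called higher in neutrophil-like cells and 0 lower, with a median log2 difference of 1.28 beside 0.20 over all 10948 genes. Mxd4 went the other way, with 24.1, 15 and 0 CPM, and was called lower without the small classes at -1.75 ± 0.51 (adjusted p = 0.0207, 2.03% of all genes called lower).

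Mxi1 was also called higher in tumor-like cells. Its level was 124 CPM in tumor 1, 71.1 CPM in tumor 2 and 79.6 CPM in tumor 3, a mean of 91.4 ± 28.2 CPM. The erythroid-like mean was higher, 104 CPM, but comes from 5 UMIs in 2 sums. The neutrophil-like values (mean 86.5 ± 10.3 CPM) lay inside the tumor-like range, at 76.7%, 106% and 113% of the tumor-like level in tumors 1, 2 and 3. T cell-like cells held 17.3%, 154% and 96.2% of that level. Macrophage-like cells held 47.8, 43.1 and 28.4 CPM, all lower. The log2 difference was 1.15 ± 0.39 (adjusted p = 0.0459), and 1.47 ± 0.36 without the small classes (adjusted p = 0.00522). The call was lost without tumor 1 (adjusted p = 0.100), without tumor 3 (0.0690), with DESeq2 (0.407), with no filter on low counts (0.0912) and against macrophage-like cells alone (0.316).

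Mxd3, the family member known from dividing cells (chromosome 13, 55325168 to 55329823, minus strand, overlapping Prelid1 on the other strand), held 26.0, 68.7 and 48.7 CPM in tumor-like cells, with tumor 2 the highest. In tumor 1, where little tumor RNA was read in other classes, Mxd3 was at 0 in B cell-like, neutrophil-like, plasmacytoid dendritic-like and mesothelial-like cells and reached 21.3 CPM in endothelial-like cells. In tumor 2 the B cell-like sum held 79.9 CPM from 2 UMIs and the T cell-like sum 61.0 CPM from 5 UMIs, so that the classes overlapped. Tumor-like cells were called higher at a log2 difference of 2.75 ± 0.82 (adjusted p = 0.0281), and 2.52 ± 0.79 without the small classes (adjusted p = 0.0194). The call was lost with DESeq2 (adjusted p = 0.261), with the authors' corrected counts (0.106) and against macrophage-like cells alone (0.169).

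Mxd4 had its highest mean levels in endothelial-like and CAF-like cells. It encodes Mad4, a repressor linked to cells that have stopped dividing (chromosome 5, 34173883 to 34187720, minus strand). Endothelial-like cells held 224, 334 and 179 CPM in tumors 1, 2 and 3, a mean of 246 ± 80.1 CPM, and CAF-like cells 212 and 240 CPM in tumors 1 and 3. The ranges of these 2 classes overlapped, and tumor-like cells held 22.8, 26.5 and 20.1 CPM, below both. The next means were 172 CPM in NK cell-like and 146 CPM in mesothelial-like cells, each a lone sum, 97.0 ± 20.1 CPM in T cell-like cells and 80.1 ± 13.6 CPM in plasmacytoid dendritic-like cells, and none of these 4 classes passed (adjusted p of 0.328, 0.119, 0.636 and 0.837). Endothelial-like cells were called higher at a log2 difference of 2.45 ± 0.51 (adjusted p = 0.00119, 10.6% of all genes called higher), at 1.63 ± 0.35 without the small classes (adjusted p = 0.00166) and at 2.14 ± 0.59 against macrophage-like cells alone (adjusted p = 0.0169). That call was lost without tumor 2 (adjusted p = 0.0871). CAF-like cells were called higher at 2.56 ± 0.56 (adjusted p = 0.00169, 13.6% of all genes called higher), at 1.72 ± 0.40 without the small classes (adjusted p = 0.00265) and at 2.24 ± 0.63 against macrophage-like cells alone (adjusted p = 0.0181). In tumor-like cells Mxd4 was called lower without the small classes, at -2.04 ± 0.44 (adjusted p = 0.00228), and with DESeq2 over all classes (-2.47, adjusted p = 9.01e-05).

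Mlx (chromosome 11, 101087277 to 101092207, plus strand, overlapping Psmc3ip on the other strand) was found in every class. Its partners include glucose-sensing factors but not Myc. Its mean level lay between 5.74 CPM in the lone NK cell-like sum and 35.3 ± 8.70 CPM in macrophage-like cells, with 17.9, 18.1 and 27.1 CPM in tumor-like cells, and neighbouring classes in that order overlapped or were lone sums. No class passed in the comparison with all classes, and without the small classes macrophage-like cells were called higher at 1.21 ± 0.38 (adjusted p = 0.0341, 12.8% of all genes called higher).

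**Figure D2:**
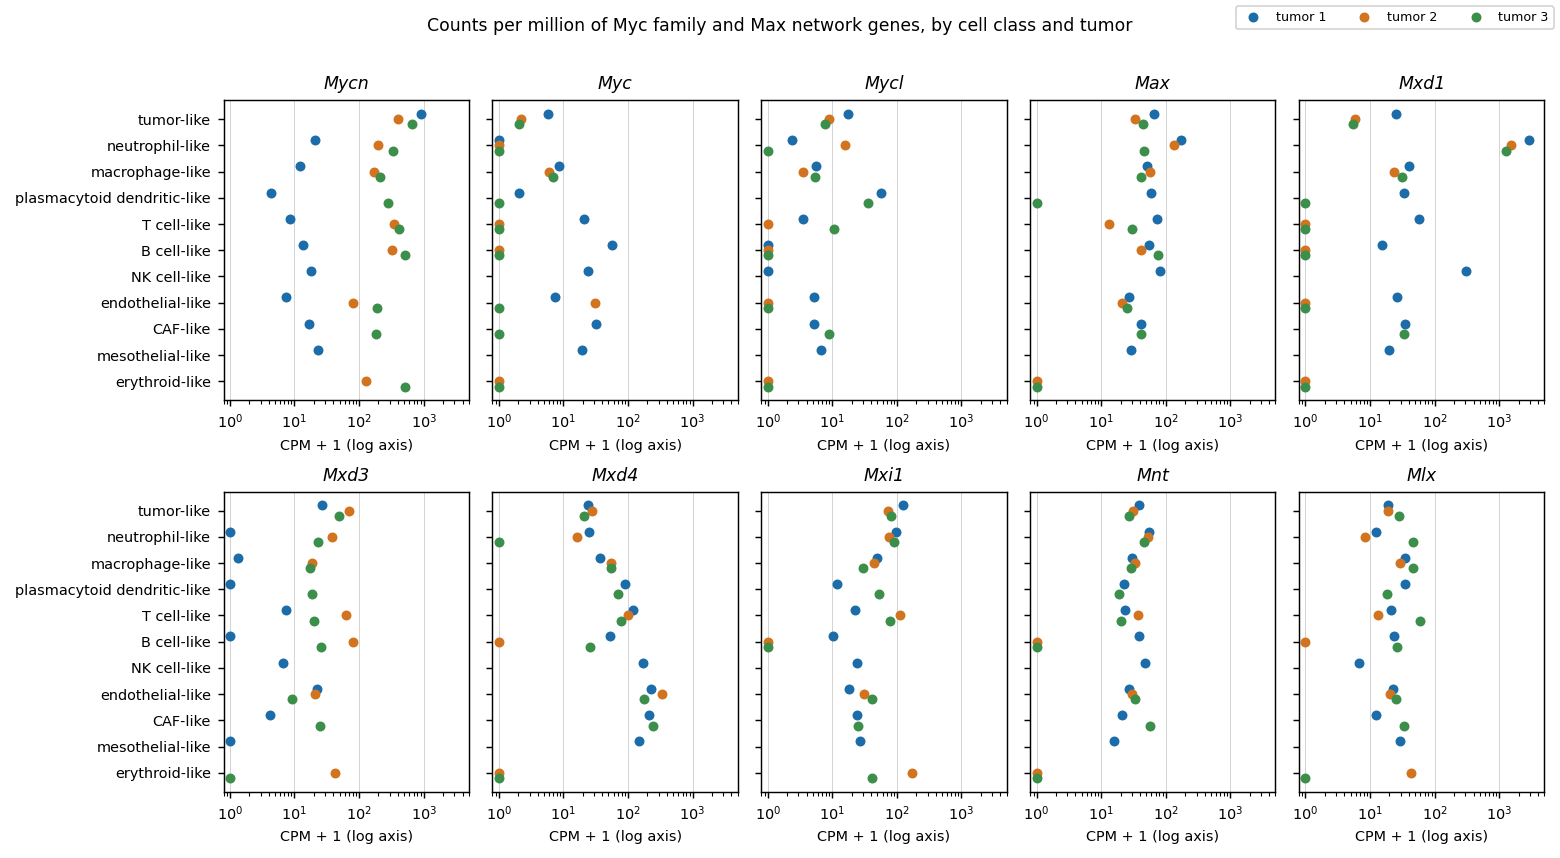
Each panel shows 1 member gene, with CPM + 1 on a log x axis, the cell classes on the y axis and 1 point per tumor for sums of at least 10 cells. Mycn is high in tumor-like cells of all 3 tumors (399 to 909 CPM) and is low in the other classes only in tumor 1, Mxd1 stands apart in neutrophil-like cells (1277 to 2859 CPM), and Mxd4 is highest in endothelial-like and CAF-like cells.

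**Figure D3:**
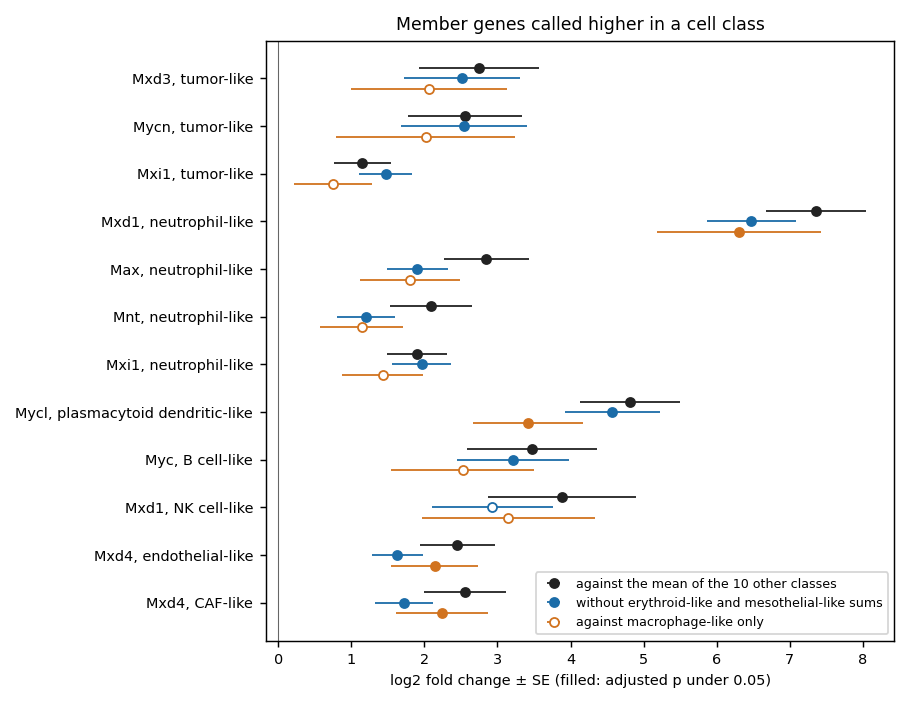
Log2 fold change with its SE for the 12 member-by-class differences called at an adjusted p under 0.05, against the mean of the 10 other classes (black), without the erythroid-like and mesothelial-like sums (blue) and against macrophage-like cells alone (orange); filled points pass the threshold. All 12 lie above 0 in all 3 settings, and 4 pass against macrophage-like cells alone: Mxd1 in neutrophil-like, Mycl in plasmacytoid dendritic-like, and Mxd4 in endothelial-like and CAF-like cells.

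The E-box that these proteins bind also lies in the start regions of some members. RefSeq start regions (250 bases before to 50 after the start, build GRCm38.p6) were found for 9 of the 10 members. CACGTG, which reads the same on both strands, was found in those of 4 members (Max, Mnt, Mlx and Mxd4) and in 8.09% of all 27025 genes with a start region (7.15% of 32851 regions, since some genes have several). The stretches around it are shown because they hold the network's own motif, written 5′ to 3′ on the strand of the gene with the E-box in capitals. They end before the start, except that the Max motif spans it.
Max, chr12:76962246-76962271, minus strand: cccggcgcggtgagcccggtCACGTG
Mnt, chr11:74830781-74830826, plus strand: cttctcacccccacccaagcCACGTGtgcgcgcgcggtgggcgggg
Mlx, chr11:101087230-101087275, plus strand: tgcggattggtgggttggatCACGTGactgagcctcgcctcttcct
Mxd4, chr5:34187904-34187949, minus strand: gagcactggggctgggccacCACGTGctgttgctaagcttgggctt

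The E-box began 3 bases before the start in Max, 40 in Mlx, 123 in Mnt and 219 in Mxd4. The related motif CACGCG, searched on both strands, was found in the start region of Mycl alone among the members, and in 10.5% of all genes. The start region of Mycn held 2 copies of TTTGGCGC (GCGCCAAA on the other strand), a motif of the E2F factors that act in S phase, against at least 1 copy in 0.585% of all genes. They began 183 and 168 bases before the start and are in capitals below.
Mycn, chr12:12941977-12942039, minus strand: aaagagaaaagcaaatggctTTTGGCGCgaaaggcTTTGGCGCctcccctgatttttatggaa
Of 3 other motifs searched on both strands, TTTGAA (20.2% of all genes) was found in Mycn, and GAGGAAGT (ACTTCCTC, 3.69%) and TTTCCCGC (GCGGGAAA, 1.24%) in no member. These matches describe the letters of the reference and not binding.

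Within tumor-like cells, the next question was whether the other members moved with Mycn. Cells with at least 1 Mycn UMI after thinning to 1000 UMIs were summed per tumor and set against those without one, 97 against 63 cells in tumor 1, 294 against 567 in tumor 2 and 955 against 1090 in tumor 3. These groups differed in Mycn by construction (1293 against 352 CPM in tumor 1). Of the 10 members, 7 passed the filter on low counts and 6 of these were other than Mycn. The edgeR test called none of those 6, and over all 7513 genes it called 1 higher, Mycn itself (0.0133%), and 0 lower, where 21 were up and 17 down before adjustment, at p under 0.05. DESeq2 also called 1 higher and 0 lower, and edgeR with each tumor as a block 1 higher and 2 lower (0.0266%), none of them a member other than Mycn.

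Of those 6, Mxi1 and Mxd4 were higher and Mlx was lower in the Mycn-positive cells of each tumor, and Mnt, Mxd3 and Max differed in direction between tumors. The Mxi1 level was 136 against 96.6 CPM in tumor 1, 91.5 against 60.8 CPM in tumor 2 and 85.6 against 74.4 CPM in tumor 3, a log2 difference of 0.46 ± 0.25 (unadjusted p = 0.0871, adjusted p = 0.9998). Mxd4 held 29.6 against 20.7, 34.1 against 22.7 and 21.5 against 18.8 CPM, and Mlx 17.7 against 20.7, 16.1 against 19.0 and 25.4 against 28.5 CPM. The other log2 differences were 0.37 ± 0.32 for Mxd4, 0.33 ± 0.30 for Mnt, 0.04 ± 0.33 for Mxd3, 0.04 ± 0.34 for Max and -0.18 ± 0.34 for Mlx. Cells of tumor 1 with a Mycn UMI were also deeper, with a median of 1961 against 1602 UMIs. Over single thinned cells, Pearson's r of Mycn with any other member lay between -0.07 and 0.16 across 160, 861 and 2045 cells of tumors 1, 2 and 3. The points share a library and are sparse, with at most 148 UMIs of a partner gene in a tumor (Mxi1 in tumor 3), so that these weak values are no finding.

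The tumor-like clusters gave a coarser view, as 16 sums of a cluster in a tumor, each taken as its deviation from the mean of its tumor in log2 CPM. Over these, Pearson's r with Mycn was 0.83 for Mxi1, 0.76 for Mnt, 0.63 for Mxd3, 0.61 for Mlx, 0.50 for Max and -0.72 for Mxd1. Without the 2 sums farthest in Mycn these values were 0.31, 0.49, 0.39, 0.55, 0.05 and -0.47, so that the relation rests in large part on those sums. Over the 27 sums at a clustering resolution of 2 they were 0.59, 0.46, 0.42, 0.38, 0.04 and -0.46, and without the 2 farthest sums 0.43, 0.35, 0.26, 0.37, 0.02 and 0.04, so that r of Max was near 0 there and r of Mxd1 rested on those sums. One of these was a cluster of 39 cells in tumor 1 with 133 CPM of Mycn from 4 UMIs, where the other 4 clusters of that tumor held 585 to 1192 CPM. The 39 cells had 367 CPM of the 7 summed tumor genes, beside 2320 to 3649 CPM in the other clusters of tumor 1, and 834 CPM of neutrophil markers beside 43.0 to 351 CPM, so that they go against their name. Their part in the relation was measured only by leaving out those 2 sums. The 5 genes most like Mycn over the 16 sums were Prelid3b, Eif3a, Ssbp4, Bod1 and Sys1 (r of 0.97 to 0.99 among 8742 genes). Their r without the 2 sums farthest in Mycn was not measured. Over all 26 sums of a class in a tumor, the 5 genes most like Mycn were Bex1, Uchl1, Ppp1r17, Dlk1 and Bex4, with r of 0.97 for each. Among the members Mxd3 followed Mycn most closely over those sums (r = 0.60) and Myc least (r = -0.62).

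Members were also set against the cell cycle, because Mxd3 is known from dividing cells and other Mxd genes from resting ones. Tumor-like cells at or above the 75th percentile of summed G2/M transcripts were compared with those at or below the 25th, 47 against 53 cells in tumor 1, 221 against 237 in tumor 2 and 534 against 601 in tumor 3. None of the 6 members tested was called among 5753 genes. Over all genes edgeR called 0 (80 up and 65 down before adjustment, at p under 0.05), DESeq2 12 higher (0.209%) and 2 lower (0.0348%), and edgeR with each tumor as a block 50 higher (0.869%) and 18 lower (0.313%), with none of the members among them. Mxd3 was higher in the G2/M-rich cells of each tumor, at 74.9 against 0 CPM in tumor 1 (8 against 0 UMIs), 95.6 against 57.9 CPM in tumor 2 and 44.5 against 36.2 CPM in tumor 3, a log2 difference of 0.79 ± 0.49 (unadjusted p = 0.126). Mxd4, Max and Mxi1 were lower in G2/M-rich cells of each tumor, at -0.63 ± 0.47, -0.36 ± 0.36 and -0.26 ± 0.30, while Mnt (-0.67 ± 0.43) was lower in tumors 2 and 3 and higher in tumor 1. In tumor 3 the gap was small for Max (45.5 against 45.7 CPM) and Mxi1 (75.1 against 75.9 CPM). Mycn was 956 against 840, 382 against 375 and 728 against 660 CPM, a difference of 0.05 ± 0.33.

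Cells high in S phase transcripts gave no call either. With 48 against 46, 308 against 284 and 665 against 705 cells, 0 of 6397 genes passed in edgeR (64 up and 41 down before adjustment, at p under 0.05), DESeq2 called 4 higher (0.0625%) and 0 lower, and the block 32 higher (0.5%) and 18 lower (0.281%), with none of the 7 members tested among them. Mxd4 was 0.80 ± 0.40 higher in S-phase-rich cells (unadjusted p = 0.0652), with tumor 1 going the other way at 16.0 against 26.4 CPM. Mnt was higher in S-phase-rich cells of each tumor, at 40.1 against 33.0, 38.2 against 26.1 and 25.9 against 21.9 CPM, a difference of 0.34 ± 0.35 (unadjusted p = 0.350). Mycn was 778 against 1295 CPM in tumor 1, 416 against 383 CPM in tumor 2 and 676 against 633 CPM in tumor 3, so that the tumors did not share a direction.

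**Figure D4:**
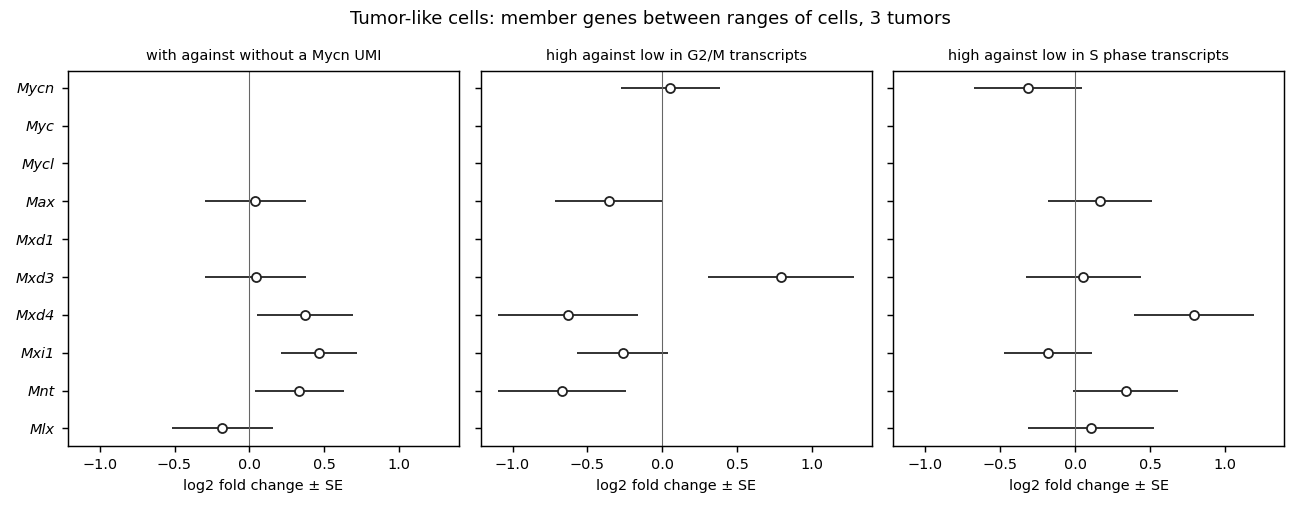
Log2 fold change with its SE (3 tumors) of each member that passed the filter on low counts, between tumor-like cells with and without a Mycn UMI (left, Mycn itself left out), high and low in G2/M transcripts (middle) and high and low in S phase transcripts (right). No member passes an adjusted p of 0.05, and the largest values are 0.79 for Mxd3 in the middle panel and 0.80 for Mxd4 in the right panel.

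Genes around the network were read from lists chosen by known function, with earlier results of these data known. Of 24 textbook Myc targets, 23 were tested, and 13 were called higher and 0 lower in tumor-like cells, beside 13.1% and 1.88% of all genes. Their median log2 difference was 1.14 beside 0.25 over all genes. With DESeq2 3 were called higher (Hspd1, Ncl and Nop56) and 1 lower (Ccnd2, a cyclin, at -3.67), beside 0.941% and 17.3% of all genes. Their median with DESeq2 was 0.67 beside -0.53 over all genes. The highest of the 13 called with edgeR were Apex1 (a DNA repair enzyme, 1.65 ± 0.52) and Mcm7 (a replication helicase subunit, 1.60 ± 0.47). Next were Cad (pyrimidine synthesis, 1.56 ± 0.42) and Hspd1 (a mitochondrial chaperone, 1.53 ± 0.38). Of these, DESeq2 called Hspd1 alone. In neutrophil-like cells 0 of the 23 were called with edgeR, beside 13.5% of all genes higher and 0.731% lower. The median there was -0.16 beside 0.20 over all genes.

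Of 11 regulators of Myc protein stability, 10 were tested, and 4 were called higher and 0 lower in tumor-like cells, beside 13.1% and 1.88% of all genes, with a median log2 difference of 1.22 beside 0.25 over all genes. They were Plk1 (3.24 ± 0.71) and Aurka (2.31 ± 0.56), mitotic kinases that protect the N-Myc protein, Skp2 (2.19 ± 0.70), a ubiquitin ligase subunit, and Cip2a (2.16 ± 0.69, listed as C330027C09Rik), an inhibitor of the phosphatase that destabilizes Myc. Plk1, Aurka and Skp2 are also genes of dividing cells. Of 19 network partners and cofactors, 18 were tested, and 3 were called higher in tumor-like cells, Hdac2 (1.58 ± 0.39), a deacetylase of repressor complexes, and the ATPases Ruvbl2 (1.43 ± 0.40) and Ruvbl1 (1.35 ± 0.37), with 0 lower and a median of 0.60 beside 0.25. A count of 3 in 18 is near the 13.1% of all genes called higher and is no result about these partners. With DESeq2, which called 0.941% of all genes higher and 17.3% lower, none of the 10 regulators was called, with a median of 0.56. Of the partners only Hdac2 was called (1.12 ± 0.40), with a median of -0.08. Both medians stand beside -0.53 over all genes. In neutrophil-like cells, where 13.5% of all genes were called higher and 0.731% lower, Ncor1, a corepressor, was called higher (1.22 ± 0.38). Hcfc1, a Myc cofactor, was called lower there (-2.46 ± 0.73). DESeq2 called Ncor1 and Sin3b higher and none of the partners lower, beside 13.4% and 0.374% of all genes. Of 3 targets of Mlx with its partners, 2 were tested. Arrdc4 was called higher in neutrophil-like cells (3.75 ± 0.54), and edgeR called none in tumor-like cells. There DESeq2 called both Txnip (-2.98) and Arrdc4 (-1.87) lower, as it did 17.3% of all genes. None of the genes tested from these 4 lists was called between tumor-like cells with and without a Mycn UMI.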

How the data were processed

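Single-cell RNA of 3 TH-MYCN mouse tumors, 1 per mouse, was measured with a droplet kit that reads 3′ ends. The deposited raw counts are UMIs per gene and barcode, which the authors made with Cell Ranger 3.1.0 on mm10 according to the submitters' processing notes. The deposited normalized values are the natural log (ln) of 1 plus a corrected count, made by the authors with Seurat after their filters on cells. They served here to define the kept cells and, turned back into corrected counts, as 1 alternative. No further doublets were removed.

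The members and the lists were chosen with earlier results of these data known. Clusters were made with Seurat 5.3.0 under R 4.3.3 (canonical correlation, 2000 variable genes, 30 dimensions, 20 neighbors, resolution 1). Members and lists were kept out of the variable genes, except the list of tumor genes, which was not held out. A cluster took a name when at least 3 markers of a type had a fold of at least 2 over the median cluster in at least 10% of its cells. Clusters with tumor markers beside those of another type were left unnamed, as were clusters of low depth with none of the markers of their type among the 10 leading genes.

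Raw counts were summed per class and tumor (at least 10 cells) and tested with edgeR 4.0.16 (its filter on low counts, TMM, quasi-likelihood test, Benjamini-Hochberg over all genes, threshold 0.05), each class against the unweighted mean of the others. All classes were fitted together, so each was tested with a spread pooled over all of them. A class with 1 sum added no spread of its own. Sums of the same tumor were treated as independent, except with the tumor as a replicate block. Ranges of tumor-like cells were set after thinning to 1000 UMIs, and by the 75th and 25th percentiles for phase transcripts. Correlations used log2 CPM with a prior count of 2. Poisson and exact binomial intervals are at 95%, and a count of 0 allows up to 3 counts. One gene of the list of tumor genes is not reported here and was left out of their sum. Named genes are the members, the 5 genes most correlated with Mycn, and up to 4 called genes of each list in each direction.

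All classes of a tumor stem from 1 mouse, so sums with the same tumor number are paired. Over 10948 genes and 6 classes with 3 sums, deviations from the class means correlated at a median of 0.24 (0.01 to 0.60) in 45 pairs of the same tumor and at -0.19 (-0.44 to 0.22) in 90 pairs of different tumors.

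On simulated counts of the class comparison (10948 genes, 200 changed), edgeR recovered 16 of 100 genes changed 2-fold and 54 of 100 changed 4-fold, and called 30 of 10748 unchanged genes. For cells with against without a Mycn UMI (7513 genes) it recovered 45 and 100 of 100, and called 9 of 7313 unchanged genes. The changed genes were drawn only from those with a mean count at or above the median. All genes were given the same spread, and no pairing of sums by tumor was simulated. Recovery of genes with lower counts, as for the sparse members, was not measured.

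Alternatives were DESeq2 1.42.0, no filter, a replicate block for the tumor, omission of single tumors, other clustering resolutions, at least 20 cells, thinning to 500 UMIs, thinned counts in the sums, a cut at the median and the corrected counts. Comparisons with macrophage-like cells alone, without the erythroid-like and mesothelial-like sums, and without 39 tumor-like cells of tumor 1 (the cluster lowest in tumor genes) were chosen after seeing the data.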

Additional observations from a re-analysis of the deposited data

How the results depend on the processing

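Members had 12 calls between classes. The same 12 were made with each tumor as a replicate block and at a clustering resolution of 2. With no filter on low counts there were 12, of which 11 were shared (Mxi1 in tumor-like cells lost, Myc in CAF-like cells gained). There were 9 at a resolution of 0.5 (8 shared), 8 with DESeq2 (7 shared), 8 with the authors' corrected counts (all shared) and 15 with at least 20 cells per sum (11 shared). Leaving out 1 tumor gave 6 to 8, of which 5 to 8 were shared. Without tumor 1, Mxd3 in tumor-like, Mnt in neutrophil-like, Mycl in plasmacytoid dendritic-like and Myc in B cell-like cells did not pass the filter, and the NK cell-like class had no sum. Of alternatives chosen after seeing the data, the comparison with macrophage-like cells alone gave 4 (all shared), leaving out the erythroid-like and mesothelial-like sums 16 (11 shared), leaving out the 39 tumor-like cells low in tumor genes the same 12, and leaving out both 17 (12 shared).

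The log2 difference of Mycn in tumor-like cells was 0.96 to 3.98 with a tumor left out. It did not pass with DESeq2 (2.05, adjusted p = 0.108) or against macrophage-like cells alone (2.02), and it was 3.62 with the replicate block, which changed no call of a member. DESeq2 gave no adjusted p for Myc in B cell-like cells and for 4 members between ranges of G2/M transcripts. Over all genes in tumor-like cells edgeR called 1437 higher and 206 lower, edgeR without the erythroid-like and mesothelial-like sums 2344 and 1374, and DESeq2 103 and 1895. Over the single calls and the members within tumor-like cells, no called value changed sign. The cause of the lost calls was not tested. Leaving out a tumor uses fewer samples.

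No member was called between ranges of tumor-like cells under any alternative run, except Mycn between cells with and without a Mycn UMI, which differ in it by construction. The level of Mycn in tumor-like cells was 735 CPM with the corrected counts, where Myc could not be compared because it is not among the genes that all 3 sets of values list. Over clusters at a resolution of 2 (27 sums), r with Mycn was 0.59 for Mxi1, 0.46 for Mnt, 0.42 for Mxd3, 0.04 for Max and -0.46 for Mxd1.

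Depth limits the rare members. Myc and Mycl gave at most 26 UMIs in the tumor-like cells of a tumor, and they and Mxd1 did not pass the filter within tumor-like cells. A difference that did not pass there does not show equal levels.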

Other observations

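The 283 cells left unnamed belong to no comparison. One cluster of 148 cells, led by Igha, Jchain and Igkc, held tumor markers beside plasma cell markers. The other, 135 cells led by Ccl3, Retnlg and Il1rn, had a median of 1064 UMIs. It passed 9 of 10 macrophage markers, none of them among its leading genes, although Retnlg is a neutrophil marker. The Mycn sums of the unnamed cells were 24.9, 367 and 409 CPM in tumors 1, 2 and 3, which is 2.74%, 91.8% and 62.4% of the tumor-like level. The 7 summed tumor genes were at 4.67%, 106% and 101%. Mxd1 was 139 CPM in the unnamed cells of tumor 1 (67 UMIs) and 17.7 and 10.8 CPM in tumors 2 and 3.

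Mxi1 was at 168 and 39.9 CPM in the erythroid-like sums of tumors 2 and 3, from 4 UMIs and 1 UMI, and gave no UMI in the 6 erythroid-like cells of tumor 1.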
